A study of Mus musculus with 5 samples.

Results

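The proteasome subunit genes were described in N2A (Neuro-2A) cells, a mouse neuroblastoma line, after knockdown of Upf1, the RNA helicase at the centre of nonsense-mediated mRNA decay (NMD). Members were the protein-coding genes whose symbols begin with Psma to Psmg followed by a digit, without the immunoproteasome genes Psmb8, Psmb9 and Psmb10. The rule used no measured value and took 47 of the 55573 genes in the table. Of these, 16 encode the 20S core, 17 the 19S regulatory particle, and 13 the assembly chaperones, alternative activators and the inhibitor Psmf1. The last, Psmc3ip, carries a matching symbol but encodes a recombination cofactor and is no subunit. Cells of the siCtl group had received 60 pmol of a commercial negative control siRNA (Silencer Negative Control #1), and cells of the siUpf1 group 60 pmol of a single Upf1 siRNA. Polyadenylated RNA was sequenced from 2 libraries of siCtl cells, numbered 1 and 3, and from 3 of siUpf1 cells, numbered 1, 2 and 3. The knockdown rests on 1 cell line and on a single siRNA sequence, so effects of the sequence itself cannot be told apart from loss of Upf1.

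The 26S proteasome degrades proteins that carry ubiquitin chains. Its 20S core is a barrel of stacked rings, with alpha subunits forming the outer rings and gate, and beta subunits forming the inner rings that hold the proteolytic sites. The 19S regulatory particle caps the barrel. Its ATPases unfold and thread substrates, and its non-ATPase subunits bind and deubiquitinate them. Subunits are made in fixed proportions and assembled with dedicated chaperones, and neurons depend on the complex for the turnover of synaptic and misfolded proteins.

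The libraries held between 20402205 and 27717594 assigned reads. Upf1 was measured at 5217 and 5243 normalised counts (reads divided by the library's size factor) in siCtl and at 2403, 2496 and 2449 in siUpf1. This is a log2 fold change of -1.10 ± 0.0507 (standard error, SE; DESeq2 adjusted p = 7.09e-101), so the libraries matched their labels. Of 10 neuronal and neuroblastoma markers, 8 were high enough to be tested and the lineage factor genes Hand2 and Gata2 were among them, whereas the neurofilament genes Nefl and Nefm had at most 4.19 normalised counts. Of 10 markers of other cell types, 4 were high enough to be tested, and Mog and Cldn5 had no read. Mbp was not called, at 373 and 410.4 normalised counts in siCtl and between 439 and 484 in siUpf1. Pecam1 was the 1 called, as lower, at 201 and 214 in siCtl and between 116 and 127 in siUpf1 (log2 fold change -0.78, DESeq2 adjusted p = 0.000129). The summed level of the 10 markers of other cell types was 648 and 697 normalised counts in siCtl and between 628 and 664 in siUpf1. As RNA was taken in bulk, fewer cells with a transcript and less of it per cell cannot be told apart. The labels do not say that replicates were separate cultures, so p-values measure the spread between these libraries, which may be technical. A gene was called at a DESeq2 adjusted p-value under 0.05, over all genes tested.

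Most proteasome genes were lower after Upf1 knockdown. Of the 47 members, 45 could be tested, 30 fell and none rose. Nearly all core genes fell, the regulatory particle fell in part, and the PA28 activator genes Psme1 and Psme2 fell furthest. The median log2 fold change was -0.28 over 14 core genes and -0.18 over 17 regulatory particle genes, against -0.00 over 15191 genes tested and -0.02 over protein-coding genes. Among all genes tested, 44.9% were called, 22.0% as higher and 22.9% as lower, and among protein-coding genes 24.5% were called higher and 26.6% lower. At an unadjusted p under 0.05, 1 member was higher in DESeq2, and edgeR called 1 member higher at an adjusted p under 0.05, in both cases Psmd1. The siCtl and siUpf1 libraries did not overlap for 39 of the 45, with siUpf1 below in 36 and above in 3 (Psmd1, Psmd7 and Psmg4). Over all genes tested, 69.4% did not overlap. The members left untested were Psma8, a testis alpha subunit with no read, and Psmb11, the thymus beta subunit, with at most 1 read in a library.

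**Figure D1:**
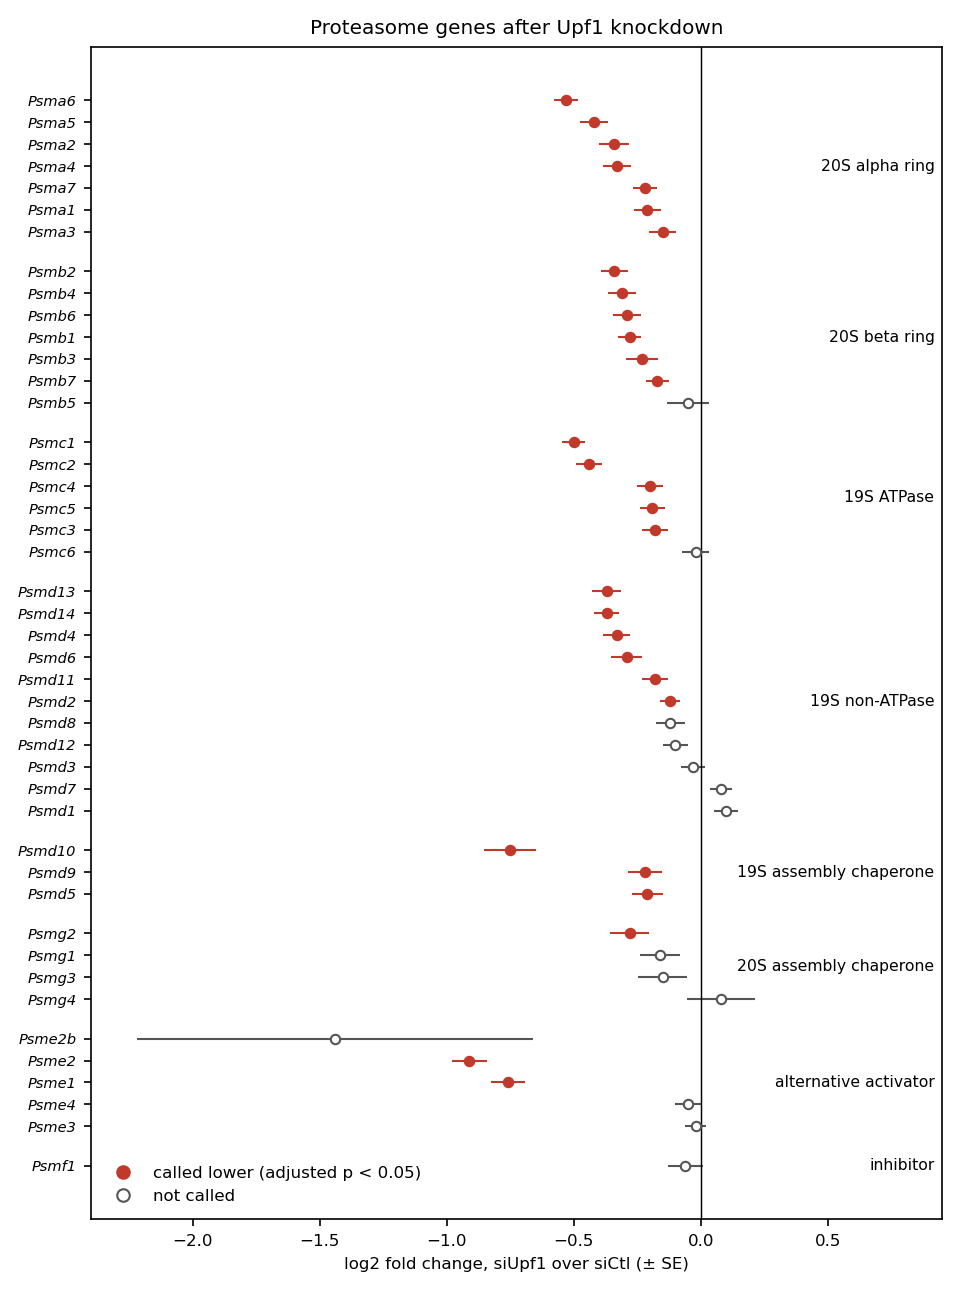
Log2 fold change of siUpf1 over siCtl with its SE (horizontal axis) for the 44 tested subunit, chaperone, activator and inhibitor genes, grouped by their place in the proteasome; filled points were called lower and open points were not called. Every alpha subunit gene is filled, and Psmb5 and Psmc6 are open within groups that are otherwise filled.

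In the alpha rings, all 7 tested genes fell, with log2 fold changes between -0.53 and -0.15. Psma6 fell furthest in the core. It was at 6301 and 6721 normalised counts in siCtl and at 4527, 4550 and 4452 in siUpf1, a log2 fold change of -0.53 ± 0.0482 (adjusted p = 1.02e-26). The siUpf1 libraries lay close together and far below both siCtl libraries. Psma5 followed at -0.42 ± 0.0563, then Psma2 at -0.34 and Psma4 at -0.33. Psma7 (-0.22) and Psma1 (-0.21) changed less. The smallest change was in Psma3, at 3631 and 3676 normalised counts in siCtl against 3411, 3229 and 3236 in siUpf1 (-0.15 ± 0.0528, adjusted p = 0.0122). Psma3 was not called in 6 of 12 alternatives (adjusted p up to 0.311), namely the replicate block, total-count size factors and the omission of either siCtl library or of siUpf1 replicate 2 or 3, although its log2 fold change stayed between -0.18 and -0.13.

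In the beta rings, 6 of 7 tested genes fell. The structural beta genes Psmb2 (-0.34), Psmb4 (-0.31), Psmb1 (-0.28) and Psmb3 (-0.23) moved by similar amounts. Of the 3 catalytic genes, Psmb6 and Psmb7 fell and Psmb5 was not called. Psmb6, which encodes the caspase-like site, was at 5863 and 6070 normalised counts in siCtl and at 4747, 5265 and 4645 in siUpf1 (log2 fold change -0.29 ± 0.0564, adjusted p = 1.51e-06). Psmb7, which encodes the trypsin-like site, was at 5334 and 5256 in siCtl and at 4662, 4794 and 4637 in siUpf1 (-0.17 ± 0.0465, adjusted p = 0.000676). In both genes the groups did not overlap. Psmb5, which encodes the chymotrypsin-like site, was at 1006 and 1042 in siCtl and at 961, 1052 and 956 in siUpf1. Its groups overlapped and it was not called (-0.05 ± 0.0829, adjusted p = 0.653). The difference between Psmb5 and the other catalytic genes was not tested, and Psmb5 shares 796 nt at 98.9% identity with a copy, Gm3375, so that its reads may be incompletely counted.

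In the 19S base, 5 of the 6 ATPase genes fell. Psmc1 was at 6504 and 6535 normalised counts in siCtl and at 4757, 4584 and 4505 in siUpf1 (-0.50 ± 0.0467, adjusted p = 4.5e-25). Psmc2 was at 4360 and 4443 in siCtl and at 3303, 3281 and 3180 in siUpf1 (-0.44 ± 0.0503, adjusted p = 7.43e-17). In both genes the siUpf1 libraries lay well below the siCtl libraries. For Psmc4, counts went from 4958 and 5266 to 4333, 4635 and 4404 (-0.20, adjusted p = 0.000429). For Psmc5 they went from 5406 and 5621 to 4683, 5042 and 4764 (-0.19, adjusted p = 0.000461), and for Psmc3 from 4559 and 4712 to 4091, 4246 and 3980 (-0.18, adjusted p = 0.0016). Psmc6 was not called and its groups overlapped (-0.02 ± 0.0533, adjusted p = 0.825).

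Among the 11 non-ATPase genes, 6 fell. The largest changes were in Psmd13 (-0.37 ± 0.0564), a lid subunit gene, and Psmd14 (-0.37 ± 0.0492), which encodes the deubiquitinase of the lid. Psmd4, which encodes a ubiquitin receptor, fell by 0.33 on the log2 scale and Psmd6, of the lid, fell by 0.29. Psmd11 was at 3824 and 3881 normalised counts in siCtl and at 3443, 3331 and 3427 in siUpf1 (-0.18 ± 0.0505, adjusted p = 0.00126). Psmd2, the scaffold gene with the highest count of all members, was at 12315 and 12318 in siCtl and at 11177, 11529 and 11254 in siUpf1 (-0.12 ± 0.039, adjusted p = 0.00516). The change in Psmd2 was small, and it was not called in 3 of 12 alternatives. Its libraries did not overlap, which held for 69.4% of all genes tested. Not called were Psmd8 (-0.12, adjusted p = 0.0757), Psmd12 (-0.10, adjusted p = 0.0783), Psmd3 (-0.03), Psmd7 (0.08, adjusted p = 0.157) and Psmd1 (0.10, adjusted p = 0.0561). In both Psmd1 and Psmd7, every siUpf1 library lay above both siCtl libraries.

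The number of calls in the regulatory particle fell when siCtl replicate 3 was left out, while the fold changes moved little. Without that library, 6 of its genes were called lower in place of 11, and 11 core genes in place of 13. The regulatory particle genes no longer called were Psmc3 (-0.15), Psmc4 (-0.16), Psmc5 (-0.17), Psmd11 (-0.17) and Psmd2 (-0.12), and the median of the particle was -0.16. With 1 siCtl library left, its spread was assumed to be that of the siUpf1 group. Without siCtl replicate 1, 10 regulatory particle and 12 core genes were called lower, and Psmd2 was again not called (-0.13, adjusted p = 0.0803).

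The medians of both particles were followed library by library. Relative to the siCtl mean, the median core gene was at -0.29, -0.22 and -0.32 (log2) in siUpf1 replicates 1, 2 and 3, and at -0.02 and 0.02 in siCtl. The median regulatory particle gene was at -0.18, -0.13 and -0.21 in siUpf1. Both medians were thus below the siCtl mean in every siUpf1 library, and replicate 2 was the nearest to it. In the core, 13 of 14 genes were below their siCtl mean in all 3 siUpf1 libraries, the exception being Psmb5.

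**Figure D2:**
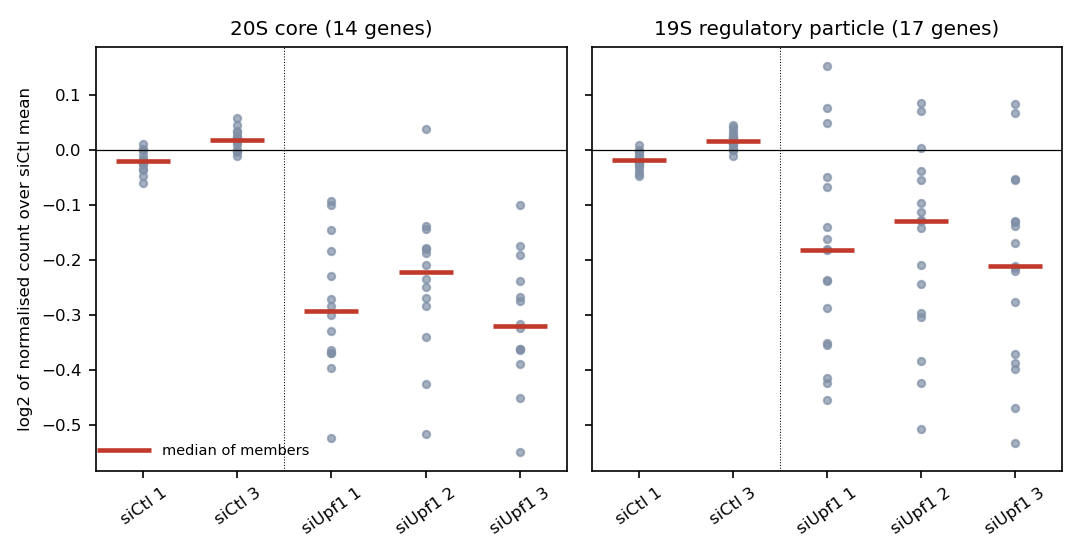
Normalised count of each core gene (left, 14 genes) and regulatory particle gene (right, 17 genes) in each library, as log2 over the siCtl mean of that gene; points are genes and red bars are medians over genes. The core medians lie between -0.32 and -0.22 in siUpf1, and the regulatory particle points spread to both sides of 0.

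Summed over genes, the core took 2307 and 2397 counts per 1000000 assigned reads (CPM) in siCtl and 1992, 1947 and 1920 in siUpf1, which is 83% of the siCtl level. The regulatory particle took 3409 and 3525 CPM in siCtl and 3195, 3078 and 3100 in siUpf1, or 90.1%. Within the regulatory particle, the 6 ATPase genes together stood at 85% of siCtl and the 11 non-ATPase genes at 92.9%. The ratio of summed core to summed regulatory particle counts, which needs no scaling between libraries, was 0.677 and 0.68 in siCtl and 0.624, 0.633 and 0.619 in siUpf1. The groups did not overlap in this ratio. With 2 libraries against 3 an exact test could not reach p < 0.05, and none was made.

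Levels were compared between genes as RPKM, reads per kilobase of the representative mRNA per 1000000 assigned reads. Genes of the core are made into equal numbers of subunits per particle, yet their RPKM levels ranged in siCtl replicate 1 from 39.9 (Psma2) to 289 (Psmb6), with a median of 143. In the regulatory particle the range in that library was 52.9 (Psmd11) to 164, with a median of 96.2. The coefficient of variation over core genes was 51.3% and 51.9% in siCtl and 49.5%, 51.5% and 49.9% in siUpf1. Over regulatory particle genes it was between 33.9% and 35.7% in all 5 libraries. Psmb5, at a mean RPKM of 45.2 in siCtl and 44.2 in siUpf1, was far below the other catalytic genes Psmb6 (296 and 246) and Psmb7 (181 and 163). The RPKM of Psmb5 may be understated, as it shares 796 nt at 98.9% identity with the copy Gm3375. An mRNA in N2A cells may be shorter than the representative one, as for Psma2 with its annotated 2911 nt, and its RPKM is then understated.

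**Figure D3:**
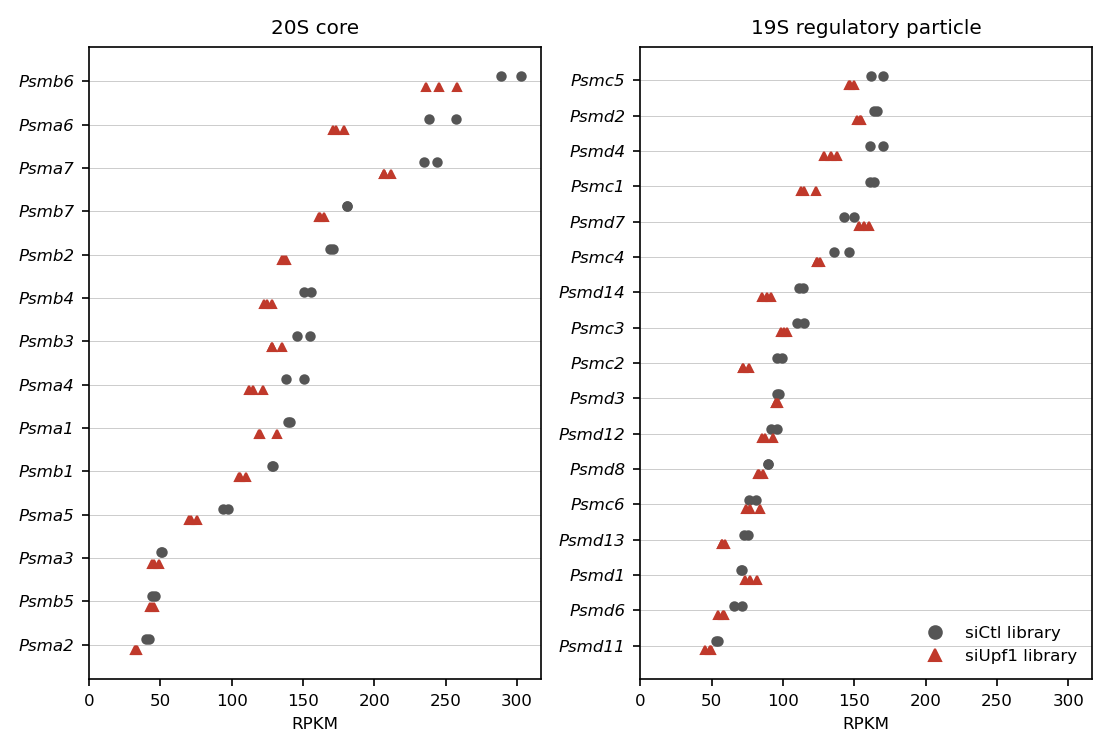
RPKM of each core gene (left) and regulatory particle gene (right) on a linear axis, with circles for the siCtl libraries and triangles for the siUpf1 libraries, ordered by the siCtl mean. Psmb6 is the highest and Psma2 the lowest core gene, and the circles lie to the right of the triangles for most genes.

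The dedicated chaperones of assembly also fell in part. All 3 chaperone genes of the 19S base among the members fell. Psmd10, which encodes gankyrin, was at 932 and 931 normalised counts in siCtl and at 561, 614 and 497 in siUpf1 (-0.75 ± 0.102, adjusted p = 2.29e-12). Psmd9 (-0.22, adjusted p = 0.00324) and Psmd5 (-0.21, adjusted p = 0.00169) changed less. With the replicate block, neither Psmd9 (adjusted p = 0.162) nor Psmd5 (adjusted p = 0.155) was called. Of the 4 chaperone genes of the 20S core, only Psmg2 was called (-0.28, adjusted p = 0.000599), and edgeR also called Psmg1 (-0.16, adjusted p = 0.0268). Psmg2 was not called with the length and GC trend removed (-0.14, adjusted p = 0.0996) or with the replicate block (adjusted p = 0.0888). Psmg3 was at -0.15 and Psmg4 at 0.08. Pomp, the maturation factor that guides beta ring assembly, is outside the symbol rule. It was at 2487 and 2759 normalised counts in siCtl and at 1841, 1973 and 1875 in siUpf1 (-0.47 ± 0.0658, adjusted p = 8.77e-12).

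Among the alternative activators, the genes of the interferon-inducible PA28 ring fell further than any subunit gene. Psme2 (PA28 beta) was at 2307 and 2249 normalised counts in siCtl and at 1230, 1260 and 1151 in siUpf1 (-0.91 ± 0.0683, adjusted p = 1.11e-38). Psme1 (PA28 alpha) was at 2559 and 2609 in siCtl and at 1500, 1639 and 1459 in siUpf1 (-0.76 ± 0.0667, adjusted p = 2.74e-28). The nuclear activators Psme3 (PA28 gamma, -0.02 ± 0.0414) and Psme4 (PA200, -0.05 ± 0.0504) were not called, nor was Psmf1 (-0.06 ± 0.0686), the gene of the inhibitor PI31. Psme2b, which shares 794 nt at 99.4% identity with Psme2, had at most 19.9 normalised counts in a library and was not called by DESeq2 (-1.44 ± 0.779, adjusted p = 0.125) but was by edgeR (adjusted p = 0.0223). Psmc3ip, which is no subunit, was not called either (-0.12 ± 0.131).

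The immunoproteasome genes, which the rule leaves out, encode inducible catalytic subunits that replace those of the core when cells meet interferon. Psmb8, the counterpart of Psmb5, was at 1208 and 1229 normalised counts in siCtl and at 676, 650.1 and 649 in siUpf1 (-0.89 ± 0.0839, adjusted p = 1.08e-24). Psmb10, the counterpart of Psmb7, was at 1013 and 1042 in siCtl and at 649, 592 and 639 in siUpf1 (-0.71 ± 0.0898, adjusted p = 3.33e-14). In both genes the groups did not overlap. Psmb9, the counterpart of Psmb6, was scarce and its groups overlapped, at 99.6 and 146 in siCtl and at 109, 85.3 and 74 in siUpf1 (-0.46 ± 0.257, DESeq2 adjusted p = 0.136, edgeR adjusted p = 0.0492). Counts of the 3 inducible genes together were 19% and 19.5% of those of the 3 constitutive catalytic genes in siCtl and 13.8%, 12% and 13.3% in siUpf1. Among regulators and partners of the immunoproteasome, 3 fell: Nlrc5 (-1.29 ± 0.271), a transactivator of class I antigen presentation genes, Tap2 (-1.16 ± 0.0743), a peptide transporter gene, and Irf1 (-0.74 ± 0.0944), an interferon response factor gene. Tap1, the other transporter gene, was not called by DESeq2 (-0.25, adjusted p = 0.0816) but was by edgeR (adjusted p = 0.0208).

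**Figure D4:**
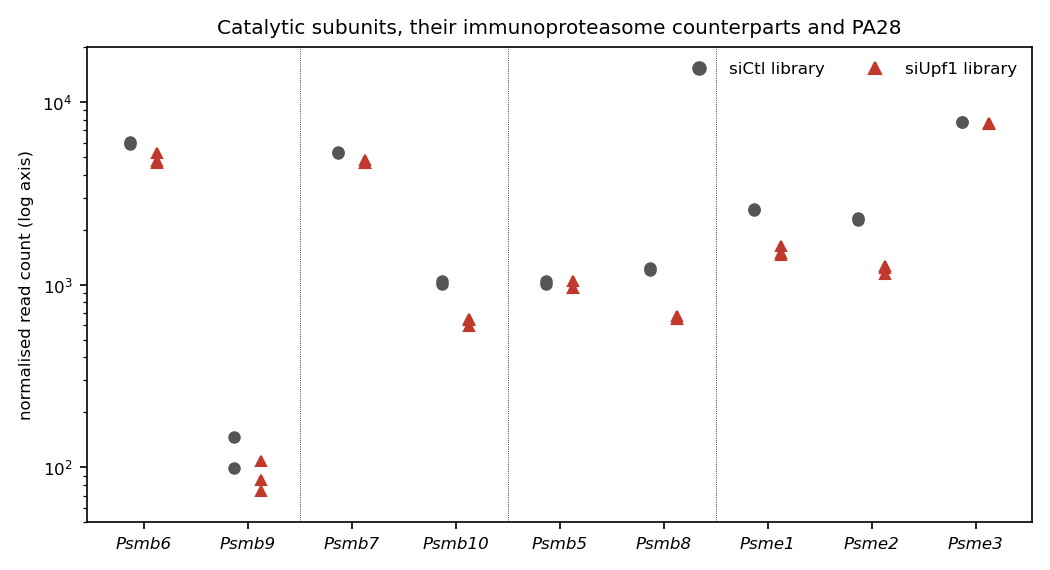
Normalised counts (log axis) of the catalytic core genes beside their immunoproteasome counterparts, and of the PA28 genes, with circles for siCtl libraries and triangles for siUpf1 libraries. Psmb8, Psmb10, Psme1 and Psme2 are separated by group, while the Psmb5, Psmb9 and Psme3 points lie close together or overlap.

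Partners of the proteasome are given as lists. Of 15 further 26S parts and partners, 5 fell (33.3%, near the 26.6% of protein-coding genes) and 3 rose (20%, near 24.5%), with a median of -0.08. The 5 became 3 without siCtl replicate 1, siCtl replicate 3 or siUpf1 replicate 3, with total-count size factors and with the replicate block. The 3 that rose became 1 with the replicate block. The subunit genes of the regulatory particle that carry other symbols, Adrm1 (-0.09 ± 0.0608) and Sem1 (0.05 ± 0.0528), were not called. Pomp was the lowest of the called genes in that list and Zfand2a, which encodes a stress-induced proteasome adaptor, was the highest (0.69 ± 0.0686, adjusted p = 3.85e-22). Of 13 genes that deliver substrates to the proteasome, 7 fell (53.8%, against 26.6%) and 2 rose (15.4%, against 24.5%). The called genes of that list ran from Ubxn7 (-0.57 ± 0.0682), a cofactor gene of the p97 unfoldase, to the shuttle gene Ubqln1 (0.48 ± 0.047). Of 6 ubiquitin and E1 genes, 5 fell with a median of -0.33, led by the E1 gene Uba6 (-0.53 ± 0.0845), and none rose by DESeq2, by edgeR or at an unadjusted p under 0.05. The COP9 signalosome is built on the same plan as the 19S lid. Of its 10 genes, 3 fell (30%, near the 26.6% of protein-coding genes) and 1 rose (10%, against 24.5%), with a median of -0.04. The called signalosome genes ran from Cops7b (-0.47 ± 0.0852) to Gps1 (0.26 ± 0.0592). The 1 that rose became 2 with edgeR, after removal of the length and GC trend, and without siCtl replicate 3 or siUpf1 replicate 3, and 0 with the replicate block.

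Proteasome genes are known to be induced as a group by the factor NRF1, encoded by Nfe2l1, when proteasome activity falls. Of 12 genes of this control, which also include Maf partners and CCAAT-binding subunits, 5 fell (41.7%) and 1 rose (8.33%). Of tested protein-coding genes, 26.6% were called lower and 24.5% higher. Nfe2l1 was at 10885 and 10516 normalised counts in siCtl and at 11551, 11965 and 11684 in siUpf1 (0.13 ± 0.0407, adjusted p = 0.00337). Its groups did not overlap, but it was not called without siCtl replicate 3 (adjusted p = 0.157), with the replicate number as a block (adjusted p = 0.288) or once the trend with length and GC was taken out (0.06, adjusted p = 0.0858). Maff, of the small Maf partners, fell furthest among the called genes (-0.54 ± 0.104).

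Most proteasome mRNAs are short and abundant, and many such mRNAs across the transcriptome were called lower. The median representative mRNA had 1435 nt among members and 3004 nt among tested protein-coding genes. Among protein-coding genes whose mean normalised count reached 1000, 49.4% of the 603 with an mRNA of up to 1500 nt were called lower, 39.8% of the 1718 with 1501 to 3000 nt, and 29.3% of the 3357 with longer ones. Members of the shortest class fell in 17 of 19 cases (10 of 11 core genes and 4 of 4 regulatory particle genes), with a median of -0.29 against -0.14 for all genes of the class. In the middle class 11 of 17 fell (3 of 3 core and 7 of 12 regulatory particle genes), with a median of -0.18 against -0.07. Of the 4 longest members 1 fell. Psma2 (2911 nt) and Psma3 (2846 nt) are in the middle class by their annotated lengths, and an mRNA in N2A cells may be shorter. Spearman's correlation of log2 fold change with mRNA length was 0.338 over 44 members and 0.17 over 12713 protein-coding genes, as a description of genes measured in the same libraries.

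**Figure D5:**
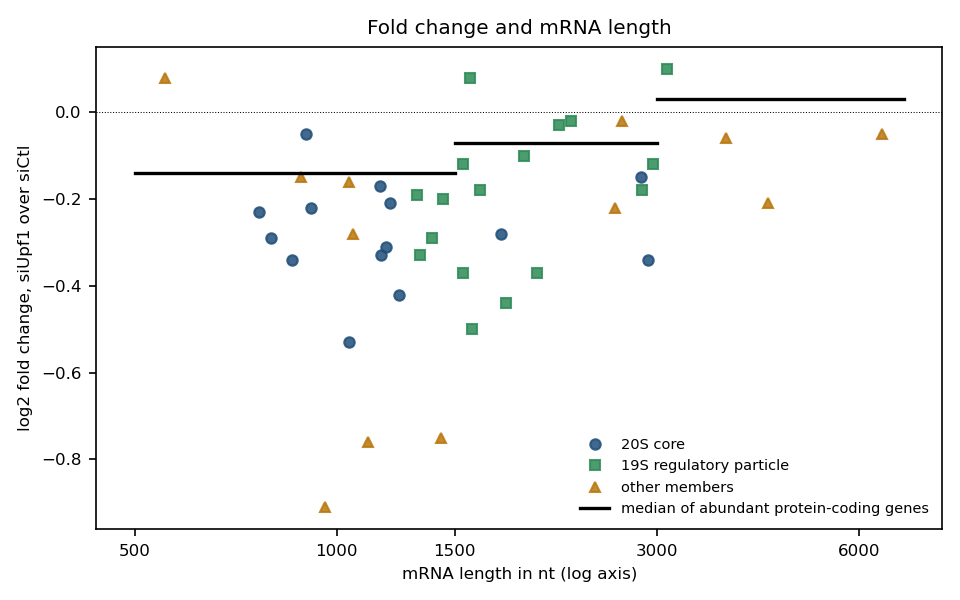
Log2 fold change of siUpf1 over siCtl against the length of the representative mRNA (log axis) for the core, the regulatory particle and the other members, without Psmc3ip and the scarce Psme2b; black lines are the medians of protein-coding genes whose mean normalised count reached 1000, in 3 length classes. The lines lie at -0.14, -0.07 and 0.03, and most members lie below the line of their class.

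Removal of each library's trend with mRNA length and GC content, an alternative chosen after seeing the data, reduced the median from -0.28 to -0.18 in the core and from -0.18 to -0.11 in the regulatory particle. With the trend removed, 11 core and 10 regulatory particle genes were called lower. Psma1, Psmb7, Psmc5 and Psmg2 were no longer called, Psme4 was called lower (-0.13, adjusted p = 0.00333), and Psmd1 (0.13, adjusted p = 0.00223) and Psmd7 (0.18, adjusted p = 1.28e-05) were called higher. Psma6, Psmc1, Psmc2, Psmd10, Psme1 and Psme2 were called lower with and without the trend.

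Members with and without an annotated NMD isoform are given side by side. Of 15 members with a transcript annotated as a target of NMD, 14 were tested, 9 fell and none rose, with a median of -0.17. Of the 31 tested members without one, 21 fell, with a median of -0.23. Among tested protein-coding genes, 23.1% of those with such a transcript were called higher and 29.2% lower, against 25.1% and 25.6% of those without. Counts per gene do not separate isoforms, so a change in an NMD isoform of a member is not seen here.

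Promoters of members are shown for the genes that fell furthest in the core, the regulatory particle and the chaperones, and for 2 catalytic genes of which 1 fell and 1 was not called. A RefSeq window of 250 bases before to 50 after the start (GRCm38.p6) was given for 38 of 46 members (41 windows, Psmc3ip left out). For each gene the window nearest to the start of its representative mRNA was taken. Up to 200 of its bases are printed, ending before the first annotated exon in it, 5′ to 3′ on the gene's strand, and capitals mark matches to any of 3 motifs on either strand. The first, TGACNNNGC, is the core of the antioxidant response element, which NRF1 and its Maf partners can bind. The second, CCAAT, is the box bound by NF-Y. The third, CCGGAA, is the core bound by ETS factors. The windows of Psma6 (chr12:55398575-55398774), Psmc1 (chr12:100109954-100110153), Psmd10 (chrX:140956729-140956928, minus strand), Psmb6 (chr11:70525157-70525356) and Psmb5 (chr14:54618023-54618222, minus strand) read as follows.
Psma6: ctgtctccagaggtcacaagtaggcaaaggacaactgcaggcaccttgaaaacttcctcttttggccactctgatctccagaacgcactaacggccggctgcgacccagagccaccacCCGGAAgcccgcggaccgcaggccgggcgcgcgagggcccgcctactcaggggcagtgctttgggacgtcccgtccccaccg
Psmc1: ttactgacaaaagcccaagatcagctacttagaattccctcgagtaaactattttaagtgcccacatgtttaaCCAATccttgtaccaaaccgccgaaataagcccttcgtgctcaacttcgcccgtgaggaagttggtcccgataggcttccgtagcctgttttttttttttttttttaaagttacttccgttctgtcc
Psmd10: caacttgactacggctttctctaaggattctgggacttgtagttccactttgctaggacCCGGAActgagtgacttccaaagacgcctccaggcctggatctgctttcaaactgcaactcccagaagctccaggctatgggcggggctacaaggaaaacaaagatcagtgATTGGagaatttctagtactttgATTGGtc
Psmb6: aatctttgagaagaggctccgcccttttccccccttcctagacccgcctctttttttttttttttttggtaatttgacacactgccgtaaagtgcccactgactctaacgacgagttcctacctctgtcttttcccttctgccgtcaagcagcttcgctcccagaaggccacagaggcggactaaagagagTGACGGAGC
Psmb5: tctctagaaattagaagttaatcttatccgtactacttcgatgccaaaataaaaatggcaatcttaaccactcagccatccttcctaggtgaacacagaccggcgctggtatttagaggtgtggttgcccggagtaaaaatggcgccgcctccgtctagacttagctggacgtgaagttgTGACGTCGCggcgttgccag

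Psma6 has a second RefSeq window at its outermost annotated start (position 55384222 of chromosome 12), upstream of the one printed, in which the CCAAT box was found and the ETS core was not. Over the members, CCGGAA was found in 51.2% of member windows, 26.7% of the windows of tested protein-coding genes and 14.9% of all 32851 windows. In the regulatory particle 10 of 14 genes with a window held it and in the core 4 of 12. CCAAT was in 7 of 12 core genes and 4 of 14 regulatory particle genes, and in 31.7% of member windows against 37.9% of tested protein-coding and 37.4% of all windows. TGACNNNGC was present in 14.6% of member windows, 14.3% of tested protein-coding and 12.4% of all windows. Among members called lower, 11 of 25 genes with a window (44%) held CCAAT and 2 of 25 (8%) TGACNNNGC. Among members not called, 1 of 12 held CCAAT and 4 of 12 TGACNNNGC. By gene rather than by window, 43.4% of tested protein-coding genes held CCAAT, 16.9% TGACNNNGC and 31.3% CCGGAA. The share of CCAAT in members called lower was thus near that of tested protein-coding genes, and differences between these sets were not tested. Both Psmb6, which fell, and Psmb5, which was not called, carry TGACNNNGC in the stretches printed above. The interferon element (GAAA, any 2 bases, then GAAA again) was in 12.2% of member windows, 2.86% of tested protein-coding and 3.44% of all windows, and the GC box GGGCGG in 56.1%, 62% and 35.7%. The interferon element was in none of the 3 immunoproteasome windows, and TTCNNNGAA, the gamma-activated sequence, was in 1 of them and in 4.88% of member windows, 6.82% of tested protein-coding and 8.3% of all windows. These are matches of letters in a window and were not tested as sites of binding.

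Some member counts are less certain because reads can match a near copy. A stretch of at least 100 nt at 97% identity or more with a transcript of another gene was found for Psma3, Psma4, Psma5, Psmb3, Psmb5, Psmc1, Psmd1, Psmd2, Psmd11, Psmg3, Psme2 and Psme2b. The longest was 1269 nt at 98% between Psmd11 and Gm14048. Psma6, Psmc2, Psmd10 and Psme1 had no such copy.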

How the data were processed

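The authors deposited raw counts of reads for each gene, neither normalised nor pooled. Per the methods and the submitters' processing notes, reads were demultiplexed with bcl2fastq (2.19.0 in the notes, another patch version in the methods), trimmed with fastp, mapped with STAR 2.7.0f to GRCm38.p6 and counted, reverse strand and exons only, by featureCounts (Subread 1.6.4) with a GENCODE annotation. Reads of near-identical genes are uncertain in such counts, and PCR duplicates cannot be recognised, so counting error alone understates the error of a value.

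From these counts, DESeq2 1.42.0 (R 4.3.3) gave a Wald test of siUpf1 against siCtl over all 5 libraries and all genes, fitted on the group alone. The tool and threshold are the study's. P-values were adjusted by Benjamini-Hochberg with a threshold of 0.05. The members and gene lists were chosen with earlier results of these data known, so no test was made over a list. Libraries were grouped by their labels. Values per library were given for the 6 lowest and 6 highest called members whose mean normalised count reached 50 and for catalytic and immunoproteasome genes. Of each list the called extremes and Nfe2l1, Pomp, Adrm1 and Sem1 were named. The list gene Paaf1 was not matched by symbol and was not analysed. Psmc4 per library, and Irf1, Tap1 and Tap2, were chosen after their values were seen, and some list genes are not reported here.

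Lengths (the representative protein-coding transcript) and NMD-annotated transcripts were from GENCODE M21, of the same build, which held 99.8% of gene identifiers. Alternatives were edgeR 4.0.16 (quasi-likelihood), TMM and total-count size factors, a minimum of 10 counts in 2 libraries, no independent filtering, the replicate number as a block, each library left out, and removal of the length and GC trend. The last, and the length classes, were chosen after seeing the data. Scripts were tested on simulated data.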

Additional observations from a re-analysis of the deposited data

How the results depend on the processing

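Of the 30 members called lower, 30 were also called lower with edgeR, TMM size factors, the count minimum, no independent filtering and without siUpf1 replicate 1, and none was called higher in any of the 12 alternatives. The number was 29 with total-count size factors and without siUpf1 replicate 2 or 3, 27 without siCtl replicate 1, 26 with the length and GC trend removed, 22 without siCtl replicate 3 and 21 with the replicate block. Leaving out each library in turn, 11 to 13 core genes, 6 to 12 regulatory particle genes and 5 to 6 other members were called lower, with the lowest counts of the regulatory particle and the core without siCtl replicate 3. The number of all genes called higher then ranged from 2393 to 2944, and that of all genes called lower from 2374 to 3115. EdgeR called 1 regulatory particle gene higher, and removal of the length and GC trend 2. That removal, an alternative added after seeing the data, moved the median of the core to -0.18 and that of the regulatory particle to -0.11. Whether the replicate numbers pair the libraries is not known, as the labels give them no meaning. Same-numbered libraries deviated from their group means with r = -0.0867 and -0.0758 for the 2 shared numbers. With 2 siCtl libraries the deviations in that group are mirror images, so these values cannot decide whether libraries were paired. With the replicate block, 10 core, 8 regulatory particle and 3 other members were called lower, with 1957 of all genes called higher and 1962 of all genes called lower. Reversals were limited to members near 0 that were not called: with the trend removed Psmb5 was at 0.04, Psme3 at 0.01 and Psmd12 at 0.01; with total-count size factors Psme3 and Psmc6 were at 0.00; and Psmc6 lay between -0.06 and 0.02 with a library left out, above 0 without siCtl replicate 3 and at 0.00 without siUpf1 replicate 3. The causes were not tested. Size factors moved the median of all genes by at most 0.02 (log2). With 2 siCtl libraries the spread of that group rests on a single difference.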
